A study of Danio rerio with 8 samples.

Results

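The let-7a, let-7b and let-7c genes of zebrafish larvae were taken from the count table by their symbols, as every row whose symbol starts with dre-let-7a, dre-let-7b or dre-let-7c. The rule found 9 of the 32520 genes listed, of which 434 have the biotype miRNA: 6 rows for let-7a (dre-let-7a-1 to dre-let-7a-6), 1 for let-7b (dre-let-7b) and 2 for let-7c (dre-let-7c-1 and dre-let-7c-2). Small RNA libraries had been made from whole larvae at 7 dpf, each from a pool of 50 individuals of the wild-type AB strain. The 4 S- libraries came from crossings with undisturbed control males, and the 4 S+ libraries came from crossings with males that had gone through 21 days of chronic stress; the fathers of both groups were siblings. Females were undisturbed in both groups, the paper describes the larvae as unexposed to the stress, and each library stands for a separate crossing. Whether the let-7 level of the progeny differs with the history of the father is the question that the comparison of S+ with S- addresses for these genes.

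MicroRNAs are short RNAs that pair with messenger RNAs through their seed, a short stretch near the 5′ end, and lower the output of those messengers. Let-7 was described in the nematode Caenorhabditis elegans as a regulator of developmental timing, and in vertebrates its mature form accumulates as tissues leave the embryonic state. The RNA-binding protein Lin28 blocks the maturation of let-7 precursors, and let-7 in turn represses lin28, so each holds the other down. The letters a, b and c name mature RNAs that share a seed and differ at few bases elsewhere, while the numbers name genomic copies of the same mature RNA. Reads of that mature RNA cannot be assigned to a copy by their sequence alone. The authors estimated the reads of each gene with RSEM, which divides such reads among the copies by a model. The single rows are therefore uncertain. The sum per letter does not depend on the division among the rows summed. The let-7a sum may still depend on the division with MIRLET7A3, a row outside the rule that is described further on. Whether that row shares reads with let-7a was not checked by sequence. Each letter sum may also depend on how reads were divided between letters, which was not checked either.

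Library totals ran from 3527034 to 4301348 counts in S- and from 3492945 to 4943297 in S+, and miRNA genes held between 96.2% and 97.9% of them. The miRNAs typical of muscle, brain, liver, pancreas, skin, blood and vessels were all present in every library, as a pool of whole larvae would hold. The summed level of the 6 rows of miR-124, a neuronal miRNA, ran from 1698 to 1746 CPM in S+ and from 1814 to 2412 CPM in S-, with no row at 0. The summed level of the 55 rows of miR-430, a miRNA of the early embryo, ran from 314 to 356 CPM in S+ and from 240 to 306 CPM in S-, with 26 rows at 0 in all libraries. Neither of these sums overlapped between the groups, and their part in the let-7 values was not tested. The sums of the other tissues looked at overlapped, among them that of miR-9, a miRNA of the neural tube. It ran from 71540 to 90710 CPM in S+ and from 78700 to 104800 CPM in S-. Over all single genes tested, 4.76% had every S+ CPM above every S- CPM. The reverse, which is the direction of miR-124, was not counted, and no such share was taken for sums of rows. How unusual the miR-124 and miR-430 sums are was therefore not tested. In pooled larvae, fewer cells with a miRNA and less of it per cell cannot be told apart. CPM are read counts scaled to a common library size after correction by TMM factors, which lay between 0.845 (S+ 2) and 1.17 (S+ 3). They were not divided by gene length, so the order of levels below is an order of reads.

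All 9 genes were detected in all 8 libraries and passed the filter on low counts, but their levels were far apart. Dre-let-7a-2 (ENSDARG00000081785) and dre-let-7a-1 (ENSDARG00000105504) were the highest, with means over all libraries of 1568 and 1539 CPM, at ranks 87 and 88 among the 434 miRNA genes by mean count. Dre-let-7c-2 (ENSDARG00000080238) followed at 551 CPM and rank 123, and dre-let-7a-5 (ENSDARG00000080890) at 343 CPM and rank 149. Dre-let-7a-3 (ENSDARG00000082287), dre-let-7a-4 (ENSDARG00000082755), dre-let-7b (ENSDARG00000081807) and dre-let-7a-6 (ENSDARG00000082173) lay at 80.7, 64.8, 51.1 and 39.6 CPM. Dre-let-7c-1 (ENSDARG00000081442) was the lowest at 10.2 CPM, on 17 to 61 counts a library. Within libraries, dre-let-7a-2 exceeded dre-let-7a-1 in all of S-, while in S+ either came first. Neighbours in this order among dre-let-7a-3, dre-let-7a-4, dre-let-7b and dre-let-7a-6 changed places between libraries.

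**Figure D1:**
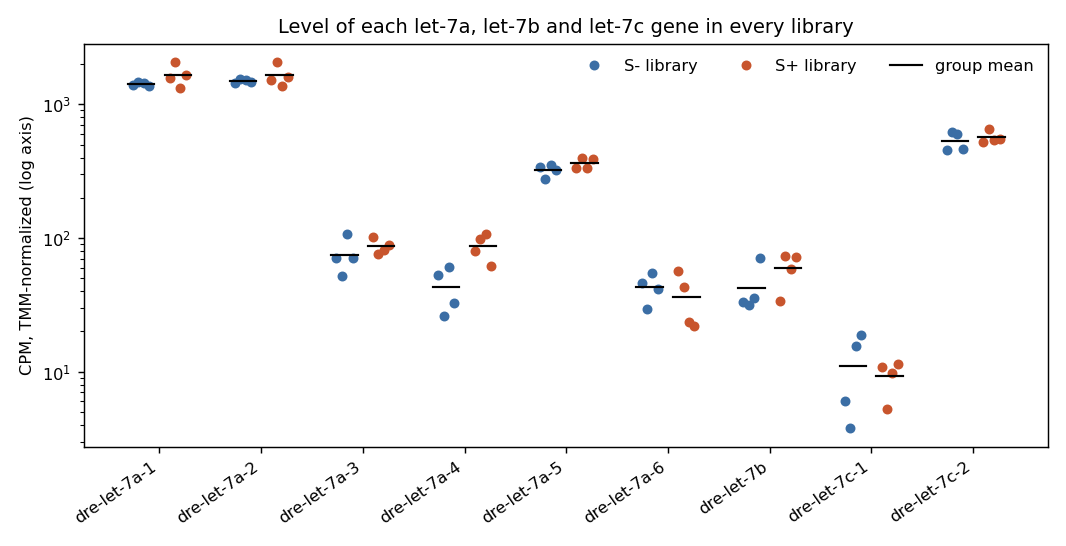
CPM on a log axis for each of the 9 genes, with 1 point per library, S- in blue and S+ in orange, and a black line at each group mean (n = 4). Dre-let-7a-4 is the gene whose S+ points, from 61.7 to 106 CPM, all lie above its S- points, from 25.9 to 60.8 CPM, while the other genes overlap.

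Of the 9 genes, 0 were called different between S+ and S- by limma, where a call needs an adjusted p below 0.05 together with a log2 fold change past 0.58 in either direction. Over all 651 genes tested, 2 passed (0.307%). At an unadjusted p below 0.05 there was 1 of the 9, dre-let-7a-4, against 12.4% of all genes tested. With DESeq2 in place of limma, 1 of the 9 was called, again dre-let-7a-4, where the same tool called 30 of 651 genes. With edgeR's quasi-likelihood test 0 of the 9 were called, where that test called 2 of 651 genes. The fitted log2 fold change was above 0 in 8 of the 9, with a median of 0.18, against 46.5% of all genes tested and a median of -0.02. The 8 include dre-let-7c-1 at 0.02, whose sign was the opposite in 8 of 10 alternative settings and in 5 of 8 fits without a library. The copies share reads, so the signs are not separate observations.

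The summed let-7a rows made up most of the reads of the 3 letters. The let-7a sum was 3343, 3401, 3519 and 3317 CPM in S- 1 to S- 4, and 3682, 4733, 3250 and 3828 CPM in S+ 1 to S+ 4. All S+ libraries but S+ 3 thus exceeded the S- range, S+ 3 fell short of it, and the S+ libraries were spread far more widely. The S- mean was 3395 ± 89.6 CPM (SD, n = 4), and the S+ mean was 3874 ± 624 CPM (SD, n = 4). Fitted across the table with the rows of each letter replaced by their sum, let-7a had a log2 fold change of 0.17 (standard error 0.134, 95% interval -0.13 to 0.47, limma adjusted p = 0.611). On log2 CPM, an exact permutation test, two-sided, gave p = 0.143, where the smallest p that 4 libraries against 4 allow is 0.0286. In that fit 0 of the 3 sums were called, against 0.155% of its 645 features.

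As a percent of all miRNA counts, which needs no scaling factor, let-7a took 0.324, 0.372, 0.394 and 0.315% in S- 1 to S- 4, and 0.381, 0.407, 0.389 and 0.386% in S+ 1 to S+ 4. On this scale the S+ libraries were the tight group and the S- libraries the wide one, and only S- 3 reached into the S+ range. The S- mean of 0.351% ± 0.0379 (SD, n = 4) and the S+ mean of 0.391% ± 0.0115 (SD, n = 4) were not separated by the test (exact permutation test, p = 0.114). Library S+ 3, the lowest of all in CPM, has the highest TMM factor, and S+ 2, the highest in CPM, has the lowest. The order of the libraries within S+ thus differs between both scales for S+ 3, while S+ 2 is highest on either. Without S+ replicate 3, the exact permutation p of the let-7a sum on log2 CPM fell to 0.0286, and without S- replicate 3 so did that of the percent, in both cases the smallest p that 3 libraries against 4 allow. Without S+ replicate 2, by contrast, the difference in log2 CPM fell from 0.18 to 0.08 (exact permutation test, p = 0.286) and the fitted log2 fold change from 0.17 to 0.08, so much of the let-7a difference in CPM rested on S+ 2.

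Let-7b, with a single gene, had 33.1, 31.4, 35.6 and 70.4 CPM in S- 1 to S- 4 and 33.6, 73.95, 59.1 and 71.6 CPM in S+ 1 to S+ 4. In each group, the libraries fell near a low level of about 33 CPM or lay well above it, with 1 high library in S- and 3 in S+. Dre-let-7b had a log2 fold change of 0.52 (standard error 0.331, 95% interval -0.22 to 1.26, limma adjusted p = 0.545), and the exact permutation test on log2 CPM gave p = 0.257. The gene had 121 to 308 counts a library. With each library left out, the fitted log2 fold change of let-7b lay between 0.39 and 0.77, the higher values coming without S- 4 or S+ 1, and in no case was it called.

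Let-7c was the letter with the smallest difference. Its sum was 464, 620, 610 and 485 CPM in S- 1 to S- 4, and 530, 662, 555 and 566 CPM in S+ 1 to S+ 4. The S+ values lay mostly between the low and the high S- values. The log2 fold change was 0.09 (standard error 0.151, 95% interval -0.25 to 0.42, limma adjusted p = 0.818), so a change of the size that the call asks for, 0.58, lies outside the interval. Single libraries moved this small value between 0.02 (without S- 1) and 0.15 (without S- 3). The exact permutation test gave p = 0.514 on log2 CPM and p = 0.914 on the percent of miRNA counts, where the means were 0.0568% in S- and 0.0588% in S+. The difference in percent changed sign without S- 1, without S- 4 or without S+ 3.

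**Figure D2:**
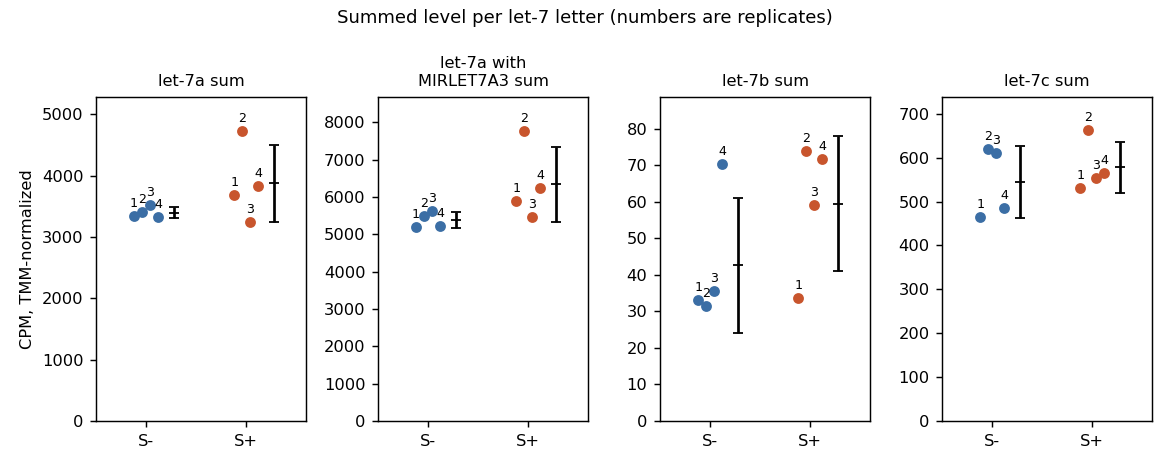
Summed CPM on a linear axis from 0 for let-7a, for let-7a with the row MIRLET7A3 added, for let-7b and for let-7c, with 1 point per library labelled by its replicate number and the mean ± SD (n = 4) beside each group. In the let-7a panel S+ 2 stands at 4733 CPM and S+ 3 at 3250 CPM, while the S- libraries lie between 3317 and 3519 CPM.

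Among the single genes, dre-let-7a-4 differed most between the groups. It had 53.1, 25.9, 60.8 and 32.4 CPM in S- 1 to S- 4 and 79.5, 98.4, 106 and 61.7 CPM in S+ 1 to S+ 4, on 106 to 553 counts a library. In CPM the groups did not overlap, though S+ 4 and S- 3 were less than 1 CPM apart. As a percent of miRNA counts they did, with 0.00681% in S- 3 and 0.00623% in S+ 4. Over all genes tested, 4.76% had every S+ CPM above every S- CPM. The log2 fold change was 1.08 (standard error 0.299, 95% interval 0.42 to 1.75), which is 2.12-fold higher in S+. Its unadjusted limma p was 0.00475 and its adjusted p was 0.166, so it was not called. DESeq2 placed it at 0.99 on the log2 scale with an adjusted p of 0.0360, while the remaining settings on the full set of 8 libraries gave adjusted p from 0.0639, with miRNA genes only, to 0.222. This row holds a small part of its letter, between 0.761% and 3.27% of the let-7a sum, and its means of 43.0 CPM in S- and 86.5 CPM in S+ are small beside those of the letter.

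The remaining genes, like dre-let-7a-4, did not pass the test, and their intervals differ in width. The log2 fold changes of dre-let-7a-1, dre-let-7a-2 and dre-let-7a-5 were 0.21, 0.12 and 0.18, with 95% intervals from -0.11 to 0.52, from -0.19 to 0.43 and from -0.12 to 0.47. For these 3 genes, as for dre-let-7c-2 at 0.10 (-0.23 to 0.43), the interval ends short of 0.58. Dre-let-7a-3 had 0.25 (-0.25 to 0.76). Dre-let-7a-6 was the only row with a fitted change below 0, at -0.31 (-1.07 to 0.44), and its S+ libraries held both its highest value, 56.8 CPM in S+ 1, and its lowest, 22.1 CPM in S+ 4. Dre-let-7c-1 had 0.02 (-1.13 to 1.16), an interval that holds changes past 0.58 in either direction.

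**Figure D3:**
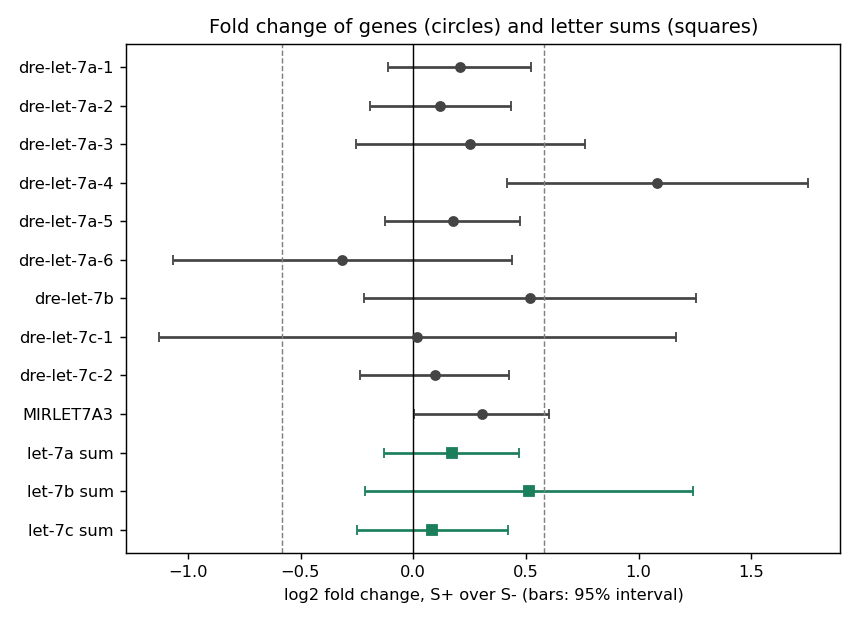
Log2 fold change of S+ over S- on the x axis with its 95% interval from limma, for the 9 genes and the row MIRLET7A3 (circles) and for the 3 letter sums (squares); dashed lines mark the fold change that a call needs, 0.58 in either direction. Only the intervals of dre-let-7a-4 (0.42 to 1.75) and MIRLET7A3 (from just above 0 to 0.60) leave 0 outside.

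As parts of the let-7a sum, the high copies kept narrow ranges over the libraries, and the low copies varied more in proportion. Dre-let-7a-2, the copy with the highest mean count, held between 41.5% and 45.3% of the let-7a sum, and dre-let-7a-1 between 40.8% and 43.5%. Dre-let-7a-5 held between 8.15% and 10.35%. The other 3 copies held at most 3.27% each, and the part of dre-let-7a-6 ran from 0.578% to 1.55%. The SD of log2 CPM within S- was 0.046 for dre-let-7a-1 and 0.039 for dre-let-7a-2, against 0.369 for dre-let-7a-6, 0.423 for dre-let-7a-3 and 0.575 for dre-let-7a-4. Within S+ this order did not hold, with 0.259 for dre-let-7a-1 and 0.249 for dre-let-7a-2 against 0.652 for dre-let-7a-6, 0.177 for dre-let-7a-3 and 0.350 for dre-let-7a-4. In let-7c, dre-let-7c-2 held between 96.2% and 99.4% of the sum.

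The balance of the leading pair of let-7a copies was read in a pair of ways, and the groups separated in the ratio but not in the percent. The counts of dre-let-7a-1 relative to those of dre-let-7a-2 were 0.954, 0.958, 0.951 and 0.940 in S- 1 to S- 4, and 1.04, 0.999, 0.971 and 1.03 in S+ 1 to S+ 4. Every S+ library lay above every S- library, and the S- values were within a narrow band. The ratio of dre-let-7c-2 to dre-let-7c-1 overlapped, and how often ratios of other gene pairs separate the groups was not counted. The log2 ratio was higher by 0.09 in S+ (exact permutation test, p = 0.0286, the smallest that 4 against 4 allow). Over 9 exact tests made on the letters, their percents and the copies, the Benjamini-Hochberg adjusted p was 0.257, the lowest of them. The log2 ratio of the let-7c copies (exact permutation test, p = 0.914) and the tests with MIRLET7A3 were not among these 9. The percent of the let-7a sum held by dre-let-7a-2 had a mean of 44.0% ± 1.05 (SD, n = 4) for S- libraries and 42.3% ± 0.890 (SD, n = 4) for S+ libraries, and these overlapped (exact permutation test, p = 0.0857). For let-7c the percent in dre-let-7c-2 was 97.9% in S- and 98.3% in S+ (exact permutation test, p = 0.657). Whether the shift in the let-7a ratio or its narrow S- band comes from the larvae or from RSEM's division of reads was not tested.

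A further row bears on let-7a, although its symbol keeps it outside the rule. ENSDARG00000083270 is listed as MIRLET7A3 in the counts and as mirlet7a-7 in the table of gene names, and it held more reads than any of the 9. MIRLET7A3 had 1850, 2094, 2092 and 1890 CPM in S- 1 to S- 4 and 2199, 3033, 2224 and 2398 CPM in S+ 1 to S+ 4. Its S+ libraries all lay above its S- libraries in CPM, as for dre-let-7a-4 and for 4.76% of all genes tested. As a percent of miRNA counts MIRLET7A3 overlapped, with 0.227% in S+ 1 below the 0.229% of S- 2 and the 0.234% of S- 3. Its log2 fold change was 0.30 (standard error 0.134, limma adjusted p = 0.391), so it was not called. Added to the let-7a sum after the values had been seen, it raised the S- mean to 5377 ± 209 CPM (SD, n = 4) and the S+ mean to 6337 ± 1001 CPM (SD, n = 4). The log2 fold change of that larger sum was 0.22 (standard error 0.132, limma adjusted p = 0.531), and 3 of 4 S+ libraries lay above all S- libraries.

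Several of these genes lie beside other miRNA genes, an arrangement known from many animals in which let-7 is found with miR-100 or miR-99 and with miR-125. All 9 symbols were matched in the RefSeq annotation of assembly GRCz12tu, which was used for neighbours only. Within 20 kb, dre-let-7a-2 had dre-mir-100-1 and dre-mir-125b-1, dre-let-7a-4 had mir100-2 and dre-mir-125b-2, dre-let-7c-1 had dre-mir-99-1 and dre-mir-125c, and dre-let-7c-2 had mir99-2 and dre-mir-125b-3. Dre-let-7a-1 lay beside dre-let-7f, dre-let-7a-5 beside dre-let-7e, and dre-let-7a-3 beside dre-let-7b. Dre-let-7a-6 had no miRNA gene within this distance.

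Numbered neighbours, such as dre-mir-100-1 and mir100-2 or dre-mir-125b-1 to dre-mir-125b-3, also name copies. Reads that such copies share would likewise be divided by RSEM, which was not checked by sequence. Their single rows, and the ratios to them, are therefore uncertain as well. The neighbours of dre-let-7a-4 had fold changes near 0. Mir100-2 averaged 155 CPM in S- and 171 CPM in S+, a log2 fold change of 0.13 (limma adjusted p = 0.774). Dre-mir-125b-2 had 146 and 142 CPM and a log2 fold change of -0.03 (limma adjusted p = 0.947). The log2 ratio of dre-let-7a-4 to mir100-2 was -1.44, -2.86, -1.12 and -2.23 in S- 1 to S- 4 and -0.91, -0.56, -1.08 and -1.40 in S+ 1 to S+ 4, so the S+ 4 ratio fell within the S- range. The difference of 0.92 had an exact permutation p of 0.0571, and that of 1.08 against dre-mir-125b-2 the same p. Around dre-let-7a-2, dre-mir-100-1 had a log2 fold change of 0.65 (limma adjusted p = 0.352) and dre-mir-125b-1 had -0.06 (limma adjusted p = 0.878). Neither was called. Around dre-let-7c-1, dre-mir-99-1 had 0.38 (limma adjusted p = 0.450) and dre-mir-125c had -0.59 (limma adjusted p = 0.394). For dre-let-7c-2, the log2 ratio to mir99-2 averaged 0.82 ± 0.073 (SD, n = 4) over S- and 0.52 ± 0.233 (SD, n = 4) over S+ (exact permutation test, p = 0.0857). Over the 10 ratios of a gene to a neighbour outside the 9, which were chosen after values had been seen, the lowest exact p was 0.0571 and the Benjamini-Hochberg adjusted p was at least 0.190.

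**Figure D4:**
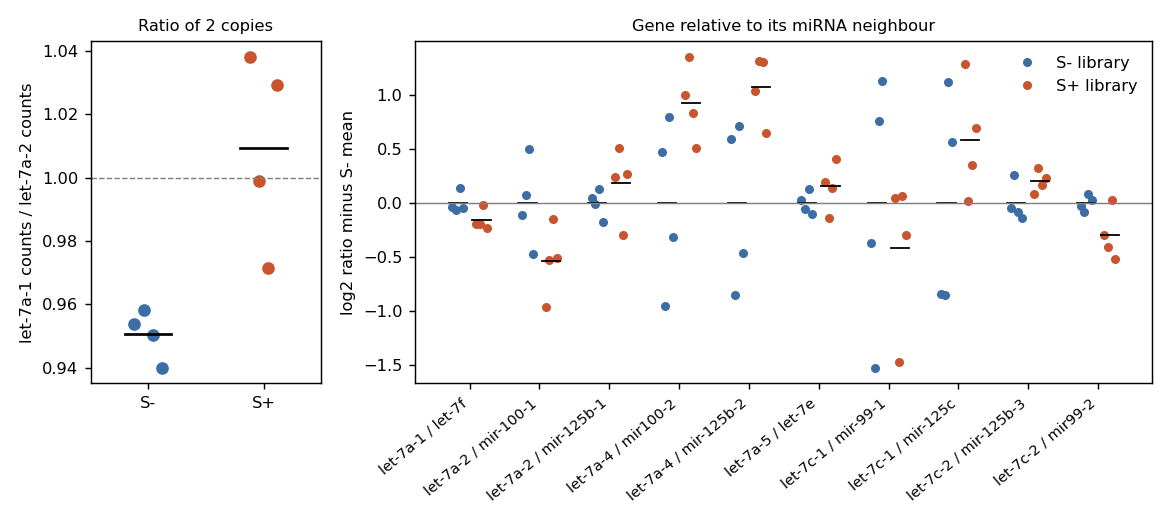
The left panel plots the counts of dre-let-7a-1 divided by those of dre-let-7a-2 in each library, from 0.940 to 0.958 in S- (blue) and from 0.971 to 1.04 in S+ (orange). The right panel plots the log2 ratio of each gene to a neighbouring miRNA gene minus its S- mean, with 1 point per library and black lines at group means (n = 4), and in all 10 ratios the groups overlap.

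Among 256 other named miRNA genes tested, those whose log2 CPM followed the let-7a sum most closely over the 8 libraries were dre-let-7g-1 (Pearson's r = 0.954, Spearman's rho = 0.762), dre-mir-24-3 (r = 0.917, rho = 0.690) and dre-let-7f (r = 0.911, rho = 0.738). Without S+ 2 and S+ 4, the libraries farthest from the median of the let-7a sum, r was 0.463, 0.448 and 0.663, so the likeness rested in large part on them. For let-7b the closest were dre-mir-10d (r = 0.872, rho = 0.690), dre-mir-457a (r = 0.863, rho = 0.833) and dre-mir-181b-1 (r = 0.822, rho = 0.714), with r of 0.814, 0.774 and 0.812 without the same libraries. For let-7c they were dre-mir-128-2 (r = 0.845, rho = 0.881), dre-mir-30c (r = 0.827, rho = 0.738) and dre-mir-183 (r = 0.823, rho = 0.714), with r of 0.790, 0.772 and 0.597 without S- 1 and S+ 2. These are descriptions, and the highest of many values. All genes of a library share its depth and scaling factor, whose part in these correlations was not tested. Between letters, r was 0.419 for let-7a with let-7b, 0.610 for let-7a with let-7c and 0.119 for let-7b with let-7c.

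The wider family and its partners were read from lists of symbols. Of the 9 genes of the letters d to j, all were tested and 0 were called. The fitted log2 changes of these letters ran from -0.39 to 0.35, with a median of 0.02. At an unadjusted limma p below 0.05, 1 of them was lower in S+ and 0 were higher, which is near the 12.4% of all genes tested that passed in either direction. All let-7 rows and MIRLET7A3 together took a mean of 0.927% ± 0.110 (SD, n = 4) of the miRNA reads of S- libraries and 1.04% ± 0.0518 (SD, n = 4) of those of S+ libraries, and the groups overlapped. Of the 10 genes of miR-99, miR-100 and miR-125, 0 were called, with 2 higher and 0 lower at an unadjusted limma p below 0.05, against the same 12.4%. Their median log2 fold change was 0.11, and 0.03 over the 8 of them other than mir99-2 and mir100-2. Of 19 symbols for proteins that process let-7, among them lin28a and lin28b, which block it, and drosha and dicer1, which cut its precursors, 13 were in the table. They had at most 17 counts in a library, and only dgcr8, a partner of Drosha, passed the filter, without being called. Of 23 symbols for messengers known as let-7 targets in animals, such as hmga2, a chromatin protein, 22 were in the table with at most 14 counts in a library and 0 were tested, so the small RNA libraries do not measure whether let-7 targets changed.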

How the data were processed

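The authors trimmed reads with Trim Galore 0.6.6, mapped them to GRCz11 with STAR 2.7.8a under small RNA settings and quantified Ensembl release 104 genes with RSEM 1.3.0. They deposited estimated counts, whole and not normalized, for 8 libraries, 4 in each group by their titles. Rounding changed no value. The methods describe an mRNA kit with molecular identifiers and do not mention deduplication. Counts are taken here as reads, which could not be checked, and depth limits cover counting error only. No 2 libraries held identical counts.

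S+ was compared with S- by limma 3.58.1 after voom in R 4.3.3, the test the study names, with TMM factors and filterByExpr (minimum count 10) from edgeR 4.0.16 and Benjamini-Hochberg adjustment over all features tested. Letter sums, percents and ratios had two-sided exact permutation tests over 70 splits, using log2 CPM (prior count 2) where a level was tested. The fit was checked on simulated data with each gene drawn independently, so that check does not cover rows that share reads. Alternatives were edgeR's and DESeq2 1.42.0 tests, limma-trend, other scalings, filters and denominators, a prior count of 0.5, miRNA genes only, the replicate block and each library left out.

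Named genes are the 9 rows, their neighbours and, per letter, the 3 miRNA genes most alike in Pearson's r; MIRLET7A3 was added after its values were seen. Members and lists were chosen with earlier results of these data known. Symbols of the form mir100-1 were matched to dre-mir-100-1. Mature sequences, the qPCR and the physiological experiments were not used here.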

Additional observations from a re-analysis of the deposited data

Results flagged for a closer look

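In S- 4, dre-let-7b stood at 70.4 CPM against 31.4 to 35.6 CPM in S- 1 to S- 3. The gap to the nearest of them took 0.892 of the range of the group, past Dixon's 95% limit for 4 libraries. It was the 1 group past that limit among 26 examined, and chance gives about 5%.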

How the results depend on the processing

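None of the 9 genes was called with limma under any filter, scaling, set of tested genes or left-out library, nor with edgeR. Few genes of any kind were called there: 0 of 651 with DESeq2 size factors and 2 of 651 with edgeR. There were 7 of 271 with miRNA genes only and 79 of 18338 with every gene counted. Fits without a library called from 0 of 720 (without S- 1) to 3 of 696 (without S- 3). DESeq2 on the rounded counts called 30 of 651, 1 of them dre-let-7a-4 (log2 fold change 0.994, adjusted p = 0.0360). With each library left out, its limma log2 fold change ran from 0.83 to 1.29 and its adjusted p from 0.136 to 0.361. Dre-let-7c-1, not called at all, had the opposite sign in 8 of 10 alternatives and in 5 of 8 fits without a library; dre-let-7a-2 had it in 1 of 8, and the other rows kept their sign. For the letter sums, the limma log2 fold change over the other alternatives lay between 0.10 and 0.23 for let-7a, 0.45 and 0.56 for let-7b, and 0.01 and 0.14 for let-7c.

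With each library left out, the permutation difference ran from 0.37 to 0.76 for let-7b and from 0.02 to 0.16 for let-7c, and that of the let-7a sum ran from 0.076 to 0.257 on the log2 scale and that of its percent of miRNA counts from 0.0273 to 0.0538, and the exact p fell to 0.0286 without S+ replicate 3 for the first and without S- replicate 3 for the second. As the log2 ratio of dre-let-7a-2 to dre-let-7a-1, the balance of copies differed by -0.086 (exact permutation test, p = 0.0286 before adjustment). Over the 9 exact tests its Benjamini-Hochberg adjusted p was 0.257, so it did not pass. With MIRLET7A3 in the let-7a sum, chosen after seeing the data, the exact p was 0.0857 for the log2 level and for the percent of miRNA counts. MIRLET7A3 was then the leading row in place of dre-let-7a-2. Its percent of the larger sum was higher by 2.07 points in S+ (exact permutation test, p = 0.0571), where that of dre-let-7a-2 in the let-7a sum had been lower.

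With the replicate block, the limma log2 fold changes were 0.17, 0.51 and 0.08 for the let-7a, let-7b and let-7c sums, and 0 of the 9 genes were called, while the count over all genes tested went from 2 to 9. Same-numbered libraries come from different crossings, and their deviations correlated at 0.156, -0.159, 0.248 and 0.029, so the numbers were not taken as pairs. Depth limits dre-let-7c-1 most, at 17 to 61 counts a library.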
